A study of Mus musculus with 16 samples.

Results

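Nppa, Nppb, Myh7, Myh7b, Acta1, Casq1 and Tnni1 are the genes of the fetal heart programme and of skeletal muscle isoforms that were followed here, by symbol, in 16 mouse hearts. They make up 7 of the 18346 genes in the deposited count table. They were chosen with earlier results on these hearts known: Acta1 and Casq1 had been named for their large falls in aged against young wild-type hearts, so for all 7 genes that comparison is given as values without a test. RNA was sequenced in bulk from hearts of 4 groups of 4 mice: aged systemic Armh4 knockout (KO_Aged), aged wild type (WT_Aged), young knockout (KO_Young) and young wild type (WT_Young). Aged mice were 25 months old and young mice 8 weeks old, and the wild-type mice were C57BL/6J. The sources do not describe how Armh4 was disrupted, and since the knockout is systemic, a cell type in which Armh4 acts cannot be read from it. The comparisons ask how loss of Armh4 bears on the ageing heart.

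Before birth the mouse heart uses a set of genes that it largely switches off afterwards. Nppa and Nppb encode the atrial and B-type natriuretic peptides, hormones that lower blood volume and pressure. Both are made in the fetal ventricle, stay on in the adult atrium and return in the ventricle under load. The slow myosin heavy chain Myh7 gives way after birth to the fast chain Myh6, skeletal actin Acta1 to cardiac actin Actc1, and slow skeletal troponin I, Tnni1, to cardiac Tnni3. Casq1 is the calsequestrin of fast skeletal muscle, the counterpart of Casq2, which stores calcium in the cardiac sarcoplasmic reticulum. Myh7b is an ancient slow-type myosin gene whose intron holds a microRNA of the heart. A return of such genes is a widely used sign of hypertrophy and failure in rodents.

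Of the 6 genes tested, Myh7b was the only one called by edgeR, the main test: it was lower in aged than in young KO hearts, at 0.646 of its level. None of the 6 passed between KO and WT hearts at either age by edgeR, limma or DESeq2. Means of Acta1 and Casq1 were lower in aged hearts of both genotypes, but in KO hearts neither passed by edgeR. There Casq1 overlapped between ages, and limma and DESeq2 called Acta1. Tnni1 had at most 7 counts in any heart, did not pass the filter on low counts and was not tested.

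Total counts ranged from 11456503 to 13298660 per heart, and 13373 genes passed the filter on low counts. Armh4 had 11 to 22 counts in aged KO hearts, 208 to 254 in aged WT hearts, 1 to 6 in young KO hearts and 158 to 211 in young WT hearts, so each library matched its genotype. Ventricular markers ranged from 12470 to 20380 CPM in sum over all hearts. Atrial markers were uneven: the atrial light chain Myl4 stood at 66.9, 48.5, 7.31 and 2.35 CPM in KO_Aged hearts, at 1.53 to 2.96 CPM in WT_Aged hearts, at 2.06 to 73.5 CPM in KO_Young hearts and at 1.64 to 12.6 CPM in WT_Young hearts. The summed level of all 14 atrial markers ranged from 1056 to 1567 CPM in KO_Aged, from 1070 to 1248 CPM in WT_Aged, from 1004 to 1537 CPM in KO_Young and from 1113 to 1274 CPM in WT_Young hearts. Pam, a gene of that list, alone had group means of 842.5 to 907.8 CPM and made up most of this sum. The hearts with the most Myl4, KO_Young_38 and KO_Aged_114, also had the highest sums, 1537 and 1567 CPM. KO_Aged_115, at 48.5 CPM of Myl4, had a sum of 1177 CPM. No batch was given. Without a stated strand setting, reads of Nppa, Casq1, Myh7 and Myh7b cannot be told apart from those of genes that overlap them on the other strand, among them Gm13054, Gm17224, Mhrt and Trpc4ap. Values of single hearts are listed in the same order throughout: KO_Aged_114, KO_Aged_115, KO_Aged_122 and KO_Aged_125, then WT_Aged_1, WT_Aged_4, WT_Aged_5 and WT_Aged_12, then KO_Young_27, KO_Young_31, KO_Young_38 and KO_Young_53, then WT_Young_29, WT_Young_34, WT_Young_39 and WT_Young_42.

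The microRNAs inside the 3 cardiac myosin genes are shown because they tie the switch between myosins to the same primary transcripts. They were not measured here. In RefSeq (GRCm38.p6) each lies within the span of its host: miR-208a in Myh6 (chr14:54949072-54949093, minus strand), miR-208b in Myh7 (chr14:54975710-54975731, minus strand) and miR-499 in Myh7b (chr2:155622893-155622913, plus strand). Capitals mark the seed, bases 2 to 8, which is the same in miR-208a and miR-208b.
mmu-miR-208a-3p: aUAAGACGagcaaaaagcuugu
mmu-miR-208b-3p: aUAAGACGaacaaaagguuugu
mmu-miR-499-5p: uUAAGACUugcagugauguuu

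The 250 bases before the RefSeq start of Acta1 (chr8:123894776-123895025, minus strand) and of Casq1 (chr1:172219896-172220145, minus strand; both GRCm38.p6) are shown because, of the 6 tested genes, these 2 had the largest log2 differences between aged and young WT hearts. Both strands were searched for the CArG box of serum response factor, the MEF2 site, the MCAT element CATTCC of TEAD factors, the GATA site AGATAA, the E-box CANNTG of myogenic helix-loop-helix factors and TATAAA. Capitals mark the matches.
Acta1: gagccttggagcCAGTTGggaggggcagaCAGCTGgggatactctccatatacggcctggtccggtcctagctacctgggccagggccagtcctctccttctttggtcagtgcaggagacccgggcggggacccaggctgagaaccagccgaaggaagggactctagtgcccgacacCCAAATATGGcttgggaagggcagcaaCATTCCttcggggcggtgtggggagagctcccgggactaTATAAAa
Casq1: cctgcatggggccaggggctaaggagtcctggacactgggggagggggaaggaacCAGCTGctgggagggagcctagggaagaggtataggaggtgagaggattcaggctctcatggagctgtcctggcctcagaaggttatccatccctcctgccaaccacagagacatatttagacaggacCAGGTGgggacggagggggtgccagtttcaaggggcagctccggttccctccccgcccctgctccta
Acta1 held 1 CArG box, 1 MCAT element, 1 TATAAA and 2 E-boxes, and none of these overlapped. Casq1 held 2 E-boxes and no other match. Among 27025 RefSeq windows of the same length, 1.40% held the CArG box, 3.01% the MEF2 site, 12.6% CATTCC, 10.3% AGATAA, 66.0% an E-box and 13% TATAAA. A match is a description of the letters and not a shown binding site.

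Levels between genes were compared per length, as FPKM, which divides by gene length and library size. In young WT hearts the order of mean FPKM was Acta1 at 574 ± 280, Nppb at 479 ± 133, Nppa at 442 ± 189, Myh7 at 90.4 ± 12.97, Myh7b at 25.7 ± 3.04, Casq1 at 8.37 ± 0.599 and Tnni1 at 0.415 ± 0.1797 (SD, n = 4). Acta1, Nppb and Nppa did not differ beyond their spread in that order. The heart's own isoforms were far above: Actc1 averaged 10630 FPKM, Myh6 6452 FPKM and Tnni3 6669 FPKM in the same hearts. In aged WT hearts Nppb at 440 ± 264 FPKM and Nppa at 286 ± 288 FPKM came first, followed by Acta1 at 111 ± 37.97 FPKM (SD, n = 4).

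**Figure D1:**
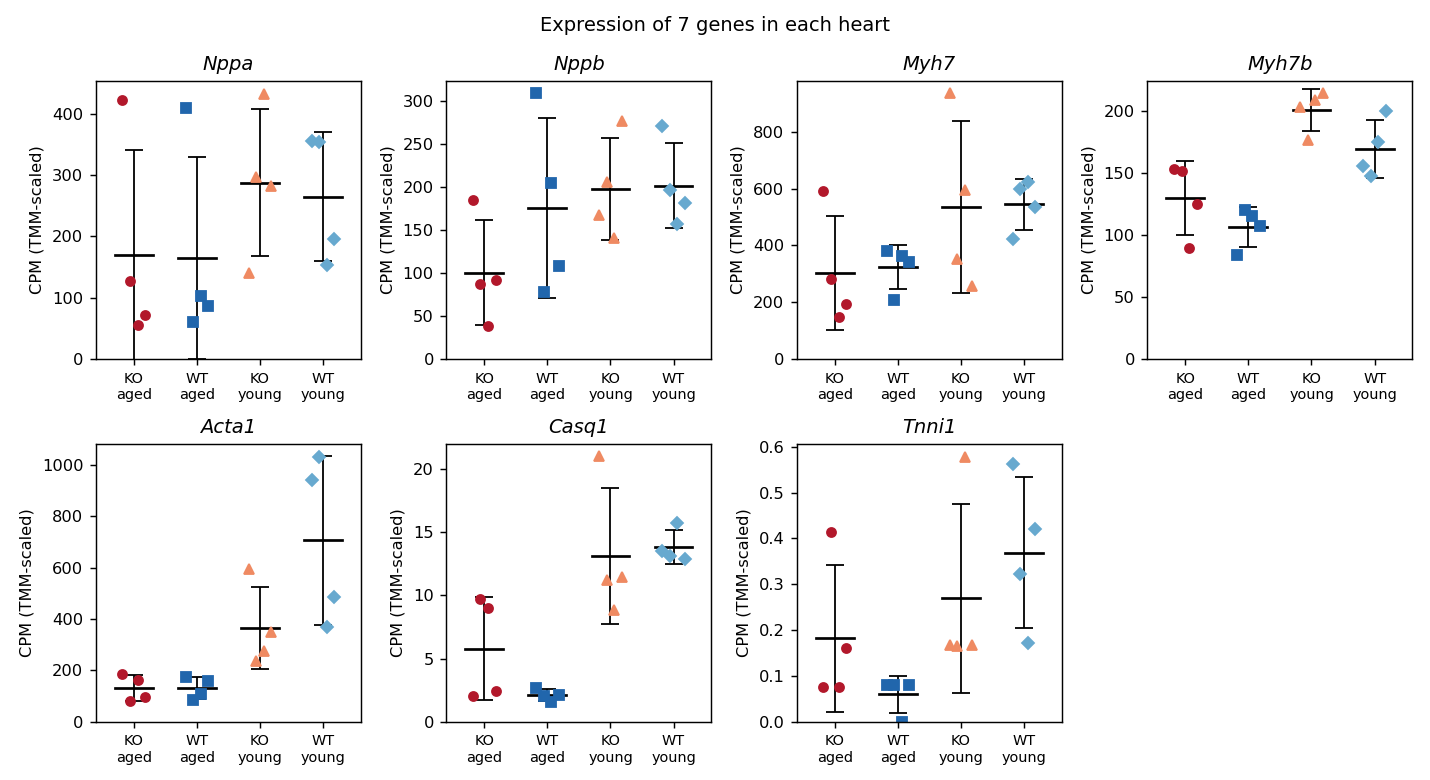
CPM (counts scaled to a common library size by TMM; vertical axes, linear from 0) of each of the 7 genes in every heart, with the mean (wide bar) and SD (whiskers, ending at 0 where they would pass below it) of 4 hearts per group. Myh7b and Acta1 do not overlap between aged and young hearts of either genotype, Casq1 lies at 2 levels within the aged KO group, and 1 aged heart of each genotype holds over 400 CPM of Nppa.

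All tests below are edgeR's quasi-likelihood test on counts, with Benjamini-Hochberg adjustment over 13373 genes and a threshold of 0.05. Log2 changes carry their standard error. Counts at an unadjusted p under 0.05 are descriptions, as the share of all genes at that level was not counted. Nothing about a list is read from them. DESeq2 called 261 of all genes in aged KO against aged WT hearts and 148 in young KO against young WT hearts. In aged against young KO hearts DESeq2 called 1230 and limma on log2(FPKM + 1) called 1029. CPM, used for levels of a single gene, are counts scaled to a common library size. Comparisons share libraries: each group enters 2 of the 4, so their values are not independent. In bulk tissue, fewer cells of a type and less RNA per cell cannot be told apart.

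In aged KO against aged WT hearts none of the 6 tested genes passed, against a background of 0.875% of all genes called. By edgeR 1 of the 6, Casq1, had an unadjusted p under 0.05, and limma on FPKM and DESeq2 called none. The aged WT hearts also entered the comparison that named Casq1, so that p is not an independent test. None of the 6 had groups that did not overlap, a separation seen at 5.04% of all genes in this comparison. In young KO against young WT hearts none passed either, where 0.269% of all genes were called. There 1 gene, Acta1, had an unadjusted p under 0.05 by edgeR, and limma and DESeq2 called none. The young WT hearts also entered the comparison that named Acta1, so that p is not an independent test either. All 6 genes overlapped (8.49% of all genes did not).

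In aged against young KO hearts 1 of the 6 genes, Myh7b, fell, against 7.63% of all genes called in either direction. Acta1, Casq1 and Myh7b had unadjusted p under 0.05, and DESeq2 and limma each called Myh7b and Acta1. The aged KO hearts lay below all young KO hearts for Myh7b and Acta1, as they did for 6.97% of all genes. Between aged and young WT hearts, 21.7% of all genes were called. There the aged group lay wholly below the young one for Myh7, Myh7b, Acta1 and Casq1, as for 9.68% of all genes. That comparison entered the choice of genes, so nothing is read from this count.

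**Figure D2:**
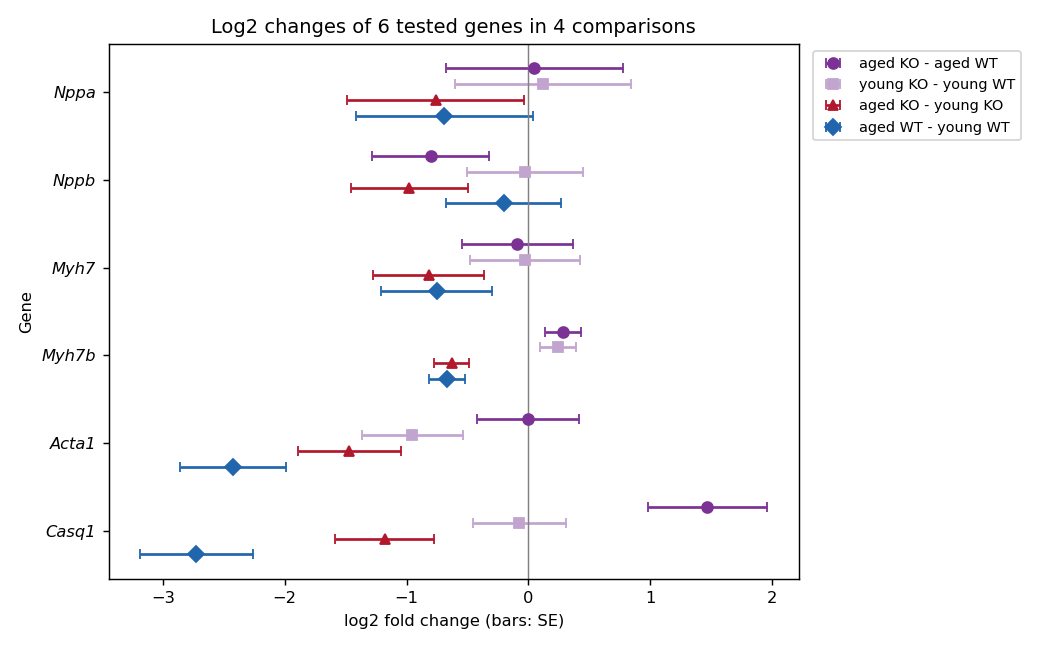
Log2 fold changes (horizontal axis; points, with bars of 1 SE) of the 6 tested genes (rows) in 4 comparisons, each named as the first group minus the second. In aged minus young KO hearts all 6 points lie below 0 and Myh7b alone passed; Acta1 and Casq1 in aged minus young WT hearts lie farthest left, at -2.42 and -2.72.

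Nppa (Entrez 230899), the gene of atrial natriuretic peptide, varied more between hearts of a group than between groups. It stood at 423, 128, 56.2 and 72.4 CPM in KO_Aged hearts, and at 409.6, 60.5, 102 and 85.7 CPM in WT_Aged hearts. It stood at 140.5, 297, 432 and 282 CPM in KO_Young hearts, and at 355.5, 354.5, 153 and 196.5 CPM in WT_Young hearts. A single heart was far above the other 3 in each aged group, and every pair of groups overlapped. Means were 170 ± 171 CPM in aged KO, 164.5 ± 164 CPM in aged WT, 288 ± 119 CPM in young KO and 265 ± 105 CPM in young WT hearts (SD, n = 4 each). The order was young KO, young WT, aged KO and aged WT from high to low, and no neighbours differed beyond this spread.

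The log2 change of Nppa was 0.05 ± 0.73 in aged KO against aged WT hearts (edgeR adjusted p = 0.993), a 1.03-fold level with a 95% interval of 0.385 to 2.77. In young KO against young WT hearts it was 0.12 ± 0.72 (edgeR adjusted p = 0.964). With age in KO hearts it was -0.76 ± 0.73 (edgeR adjusted p = 0.604), and in aged against young WT hearts -0.69 ± 0.73, or -1.66 without WT_Aged_1. Without KO_Aged_114 the value for aged against young KO hearts was -1.75 (edgeR adjusted p = 0.183). Leaving out both high aged hearts, an alternative chosen after the data were seen, gave the same -1.75 with an edgeR adjusted p of 0.0417. For aged KO against aged WT the sign turned to -0.94 without KO_Aged_114 and the value came to 1.03 without WT_Aged_1.

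Atrial tissue is rich in Nppa, so atrial genes are given beside it. KO_Aged_114 held 66.9 CPM of Myl4, 39.4 of Myl7 and 17.3 of Sln, whereas WT_Aged_1, with almost as much Nppa, held 2.51 CPM of Myl4, 0.243 of Myl7 and none of Sln. KO_Young_38 had the highest Nppa of all hearts and also the highest Myl4, at 73.5 CPM. WT_Young_29 stood at 355.5 CPM of Nppa with 3.62 CPM of Myl4. Across the 16 hearts log2 CPM of Nppa and Myl4 had a Pearson r of 0.415, and 0.49 after centring within groups, as a description. Sln and Myl7 gave 0.472 and 0.389, whereas Kcnj3, another gene of the atrial list, gave -0.20 with Nppa and -0.59 with Nppb. With the mean of Myl4, Myl7 and Sln as covariate the log2 change of Nppa was -0.90 in aged KO against aged WT hearts (edgeR adjusted p = 0.845) and -1.03 in aged against young KO hearts (adjusted p = 0.443).

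**Figure D3:**
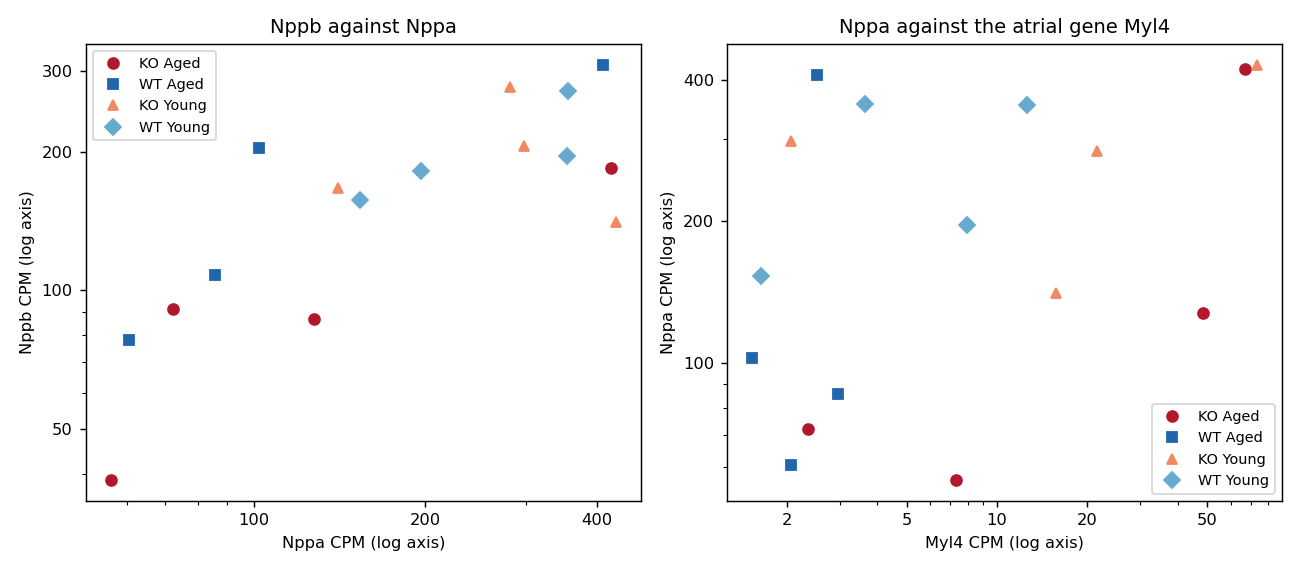
Each point is a heart, shaped and coloured by group: left, CPM of Nppb against CPM of Nppa; right, CPM of Nppa against CPM of the atrial light chain Myl4 (all axes logarithmic). Hearts high in Nppa tend to be high in Nppb, and WT_Aged_1 holds 409.6 CPM of Nppa at 2.51 CPM of Myl4.

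Nppb (Entrez 18158), the gene of B-type natriuretic peptide, lies next to Nppa on mouse chromosome 4 with no annotated gene between them in RefSeq. It stood at 184.5, 86.8, 38.8 and 91.3 CPM in KO_Aged hearts, and at 309, 78.0, 204 and 108 CPM in WT_Aged hearts. It stood at 167, 206, 141 and 276 CPM in KO_Young hearts, and at 271, 196, 157 and 181 CPM in WT_Young hearts. The same 2 aged hearts that were high in Nppa were the highest of their groups, and 3 of the 4 aged KO hearts lay below every young heart. All pairs of groups overlapped. Means were 100.3 ± 60.9 CPM in aged KO, 175 ± 104.5 CPM in aged WT, 197 ± 59.1 CPM in young KO and 201 ± 49.0 CPM in young WT hearts (SD, n = 4 each), the lowest in aged KO and the highest in young WT, with no neighbours apart beyond their spread.

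The log2 change of Nppb was -0.80 ± 0.48 in aged KO against aged WT hearts (edgeR adjusted p = 0.603), a 0.574-fold level with a 95% interval of 0.299 to 1.10. Without WT_Aged_1 it was -0.39 (edgeR adjusted p = 0.899). In young KO against young WT hearts it was -0.03 ± 0.47 (adjusted p = 0.986), in aged against young KO hearts -0.98 ± 0.48 (adjusted p = 0.266) and in aged against young WT hearts -0.20 ± 0.47. Nppa and Nppb had a Pearson r of 0.783 over the 16 hearts (log2 CPM) and of 0.785 after centring within groups. That pair had the highest centred r among the 15 pairs of the 6 genes, and the points share libraries.

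Of 11 tested genes that process or answer the natriuretic peptides, 2 rose and 1 fell in aged against young KO hearts, where 7.63% of all genes were called, with a median log2 change of 0.08 against -0.01 over all genes. Corin, the protease that cuts the Nppa precursor, rose to 317 ± 24.9 CPM in aged KO hearts, against 242 ± 30.3 CPM in young KO hearts (SD, n = 4; log2 change 0.39 ± 0.11, edgeR adjusted p = 0.0326), a call lost in 6 of 26 alternatives (adjusted p up to 0.108). Mme, the neprilysin that degrades the peptides, rose to 19.9 ± 4.21 CPM, against 11.3 ± 0.448 CPM (0.81 ± 0.15, edgeR adjusted p = 0.00165). Pde2a, a phosphodiesterase that splits the second messenger cGMP made by the peptide receptors, fell to 73.7 ± 4.75 CPM, against 109 ± 11.3 CPM (-0.56 ± 0.10, edgeR adjusted p = 0.00143). Mme and Pde2a passed in all 26 alternatives. In aged WT hearts Pde5a and Pde2a fell relative to young WT hearts, a comparison with 21.7% of all genes called. Between genotypes none of the 11 genes passed by edgeR at either age. An unadjusted p under 0.05 was seen for 3 of them in aged and none in young hearts, shares not counted over all genes. DESeq2 called Mme and Prkg1 in aged KO against aged WT hearts, where edgeR gave Mme a log2 change of 0.55 ± 0.14 (adjusted p = 0.0845).

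Myh7 (Entrez 140781) encodes the slow beta-myosin heavy chain. Its counts were not whole in any of the 16 libraries. How reads shared with its near-identical neighbour Myh6 were divided is not stated, so its level is uncertain. It stood at 592, 282, 146 and 194.5 CPM in KO_Aged hearts, and at 381, 208.5, 362 and 342 CPM in WT_Aged hearts. It stood at 937, 352, 597 and 256 CPM in KO_Young hearts, and at 421.5, 599, 622 and 537 CPM in WT_Young hearts. All aged WT hearts lay below all young WT hearts, while KO hearts were spread widely at both ages and overlapped. Means were 304 ± 200 CPM in aged KO, 324 ± 78.3 CPM in aged WT, 535 ± 304 CPM in young KO and 545 ± 89.7 CPM in young WT hearts (SD, n = 4 each). They increase in that order, and no neighbours in it differed beyond their spread.

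The log2 change of Myh7 was -0.09 ± 0.45 in aged KO against aged WT hearts (edgeR adjusted p = 0.972; 0.939-fold, 95% interval 0.507 to 1.74) and -0.03 ± 0.45 in young KO against young WT hearts (adjusted p = 0.988). Between aged and young KO hearts it was -0.82 ± 0.46 (adjusted p = 0.331), and -1.36 without KO_Aged_114 (adjusted p = 0.075) but -0.40 without KO_Young_27 (adjusted p = 0.669). The value for aged against young WT hearts was -0.75 ± 0.46. Neither genotype held more Myh7 in aged than in young hearts on average.

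Myh7b (Entrez 668940), host of miR-499, had the lowest coefficient of variation of the 7 genes in 3 of the 4 groups; in young WT hearts that of Casq1 was lower. It stood at 153, 151, 89.2 and 125.01 CPM in KO_Aged hearts, and at 83.8, 120.2, 115.3 and 107 CPM in WT_Aged hearts. It stood at 203, 176.5, 209 and 214 CPM in KO_Young hearts, and at 155, 147, 175 and 200.1 CPM in WT_Young hearts. Every aged heart lay below every young heart of its own genotype, and the 2 genotypes overlapped at both ages. Means were 129.6 ± 29.8 CPM in aged KO, 106.5 ± 16.2 CPM in aged WT, 200.5 ± 16.7 CPM in young KO and 169 ± 23.5 CPM in young WT hearts (SD, n = 4 each). From high to low the order was young KO, young WT, aged KO and aged WT, and neighbours overlapped, the highest aged KO heart standing above the lowest young WT heart.

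In KO hearts Myh7b fell with age by 0.63 ± 0.15 on the log2 scale (edgeR adjusted p = 0.0122), to 0.646 of the young level with a 95% interval of 0.529 to 0.789. It passed in all 26 alternatives, with adjusted p of 0.00111 to 0.0413, the atrial covariate (-0.63, adjusted p = 0.00842) among them. Its log2 change in aged against young WT hearts was -0.67 ± 0.15. The KO against WT values were 0.28 ± 0.15 in aged hearts (edgeR adjusted p = 0.525; 1.22-fold, 95% interval 0.995 to 1.49) and 0.24 ± 0.15 in young hearts (adjusted p = 0.562). Both point upwards in KO hearts and neither passed. Of the 6 genes Myh7b alone had a standard error of 0.15; those of the other 5 were 0.38 or more in these comparisons.

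Acta1 (Entrez 11459) encodes skeletal alpha-actin, the isoform whose promoter is printed above. It stood at 187, 82.6, 161 and 95.01 CPM in KO_Aged hearts, and at 176, 84.2, 106 and 159.6 CPM in WT_Aged hearts. It stood at 595, 238, 274 and 351 CPM in KO_Young hearts, and at 939, 1032, 368 and 485 CPM in WT_Young hearts. All 8 aged hearts lay below all 8 young hearts, and the genotypes overlapped at each age. The WT hearts among them form the comparison that named Acta1, and the share of all genes so separated was not counted. Nothing is read from that pooled separation. Means were 131 ± 50.5 CPM in aged KO, 131.5 ± 43.3 CPM in aged WT, 364 ± 161 CPM in young KO and 706 ± 329 CPM in young WT hearts (SD, n = 4 each). They increase in that order, and of the neighbours only aged WT and young KO did not overlap.

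The log2 change of Acta1 in aged against young KO hearts was -1.47 ± 0.42, a 0.361-fold level with a 95% interval of 0.203 to 0.641. It missed the threshold (edgeR adjusted p = 0.0545). It passed with limma on log2(FPKM + 1) (adjusted p = 0.0314) and on log2(FPKM + 0.1), and with DESeq2 (0.00848). It also passed by edgeR without WT_Young_39 (0.0427) and without a robust estimate of the dispersion (0.014, chosen after the data were seen). Without KO_Aged_115 it was -1.30 (adjusted p = 0.142). Between aged and young WT hearts it was -2.42 ± 0.43. In aged KO against aged WT hearts it was -0.00 ± 0.42 (edgeR adjusted p = 0.999; 95% interval 0.567-fold to 1.76-fold), and in young KO against young WT hearts -0.95 ± 0.41 (adjusted p = 0.428, unadjusted p = 0.0393). Both of these genotype comparisons use WT hearts of the comparison that named Acta1. That choice favours a lower KO to WT level in young hearts, so nothing is read from the unadjusted p there. The ageing change in KO minus that in WT hearts was 0.95 ± 0.59, given without a test because it contains the comparison that named Acta1.

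Casq1 (Entrez 12372), the skeletal calsequestrin, was low in every heart but rested on at least 20 counts per library. It stood at 2.06, 9.69, 8.985 and 2.43 CPM in KO_Aged hearts, from 27, 117, 118 and 30 counts, and at 2.68, 2.06, 1.53 and 2.08 CPM in WT_Aged hearts, from 33, 26, 20 and 26 counts. It stood at 21.0, 11.2, 8.83 and 11.4 CPM in KO_Young hearts, and at 13.5, 13.1, 15.8 and 12.8 CPM in WT_Young hearts. Aged WT hearts lay far below all young hearts. KO_Aged_114 and KO_Aged_125 stood among the aged WT values, and KO_Aged_115 and KO_Aged_122 stood within the range of the young KO hearts. Means were 5.79 ± 4.11 CPM in aged KO, 2.09 ± 0.469 CPM in aged WT, 13.1 ± 5.39 CPM in young KO and 13.8 ± 1.33 CPM in young WT hearts (SD, n = 4 each). From high to low the order was young WT, young KO, aged KO and aged WT, and all neighbours overlapped.

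In aged KO against aged WT hearts the log2 change of Casq1 was 1.47 ± 0.49 (edgeR adjusted p = 0.238, unadjusted p = 0.0098), a 2.77-fold level with a 95% interval of 1.42 to 5.40. These aged WT hearts also entered the comparison that named Casq1 for its fall, a choice that favours a higher KO to WT level. The p and interval are thus given as values, and nothing is read from them. The adjusted p of Casq1 was 0.0758 to 0.554 over 26 alternatives, the lowest by DESeq2 and the highest without KO_Aged_122. It was -1.18 ± 0.41 in aged against young KO hearts (edgeR adjusted p = 0.101) and, in aged against young WT hearts, -2.72 ± 0.46. In young KO against young WT hearts it was -0.07 ± 0.38 (adjusted p = 0.958). The ageing change in KO minus that in WT hearts was 1.54 ± 0.62, without a test for the same reason as for Acta1. Of the 2 aged KO hearts high in Casq1, KO_Aged_115 held 48.5 CPM of Myl4 and KO_Aged_122 held 7.31 CPM, against 66.9 CPM in KO_Aged_114 and 2.35 CPM in KO_Aged_125, which were low in Casq1.

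Tnni1 (Entrez 21952), slow skeletal troponin I, was close to undetectable. It had 1, 5, 1 and 2 counts in KO_Aged hearts, 1, 1, 0 and 1 in WT_Aged hearts, 2, 2, 7 and 2 in KO_Young hearts, and 7, 4, 2 and 5 in WT_Young hearts. Group sums were 9 counts in aged KO (exact 95% Poisson interval 4.12 to 17.1), 3 in aged WT (0.619 to 8.77), 13 in young KO (6.92 to 22.2) and 18 in young WT hearts (10.7 to 28.4), where the intervals cover counting error only. Every aged WT heart had fewer counts than every young WT heart, while aged and young KO hearts overlapped, and the filter on low counts left the gene out of the test.

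Set against the adult cardiac isoforms within the same heart, the fetal and skeletal forms were minor in every group. The FPKM of Acta1 was 1.28 ± 0.434% of that of Actc1 in aged KO hearts, 1.48 ± 0.512% in aged WT, 3.51 ± 1.85% in young KO and 5.37 ± 2.54% in young WT hearts (SD, n = 4 each). Casq1 was 0.690 ± 0.481% of Casq2 in aged KO, 0.260 ± 0.0819% in aged WT, 1.72 ± 0.772% in young KO and 1.39 ± 0.0998% in young WT hearts. Myh7 was 0.996 ± 0.762% of Myh6 in aged KO, 1.12 ± 0.371% in aged WT, 1.38 ± 0.825% in young KO and 1.40 ± 0.134% in young WT hearts. Tnni1 was at most 0.00913% of Tnni3 in any heart. By this measure these transcripts were largely of the adult form at both ages, with Acta1 reaching 8.11% of Actc1 in WT_Young_34. The Myh7 ratio is uncertain, as how reads shared with Myh6 were divided is not stated.

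Nppb was 110 ± 49.9% of Nppa in aged KO hearts, 192.5 ± 74.6% in aged WT, 111 ± 50.2% in young KO and 117 ± 30.1% in young WT hearts (SD, n = 4 each). Myh7b was 47.6 ± 16.9% of Myh7 in aged KO, 33.1 ± 15.1% in aged WT, 44.5 ± 25.6% in young KO and 29.02 ± 5.82% in young WT hearts. The 6 ratios gave 17 testable differences, and none passed after adjustment in an exact two-sided permutation test of the log2 ratios, in which a single separated ratio cannot pass. The lowest p, for Acta1 to Actc1 in aged against young KO hearts, was 0.0286, the smallest that 4 hearts against 4 allow (exact permutation test, adjusted p = 0.324; difference -1.39 ± 0.41 on the log2 scale). All 4 aged KO hearts had a lower ratio than the 4 young KO hearts. For Nppb to Nppa in aged KO against aged WT hearts the difference was -0.83 ± 0.43 (exact permutation p = 0.0571, adjusted p = 0.324).

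**Figure D4:**
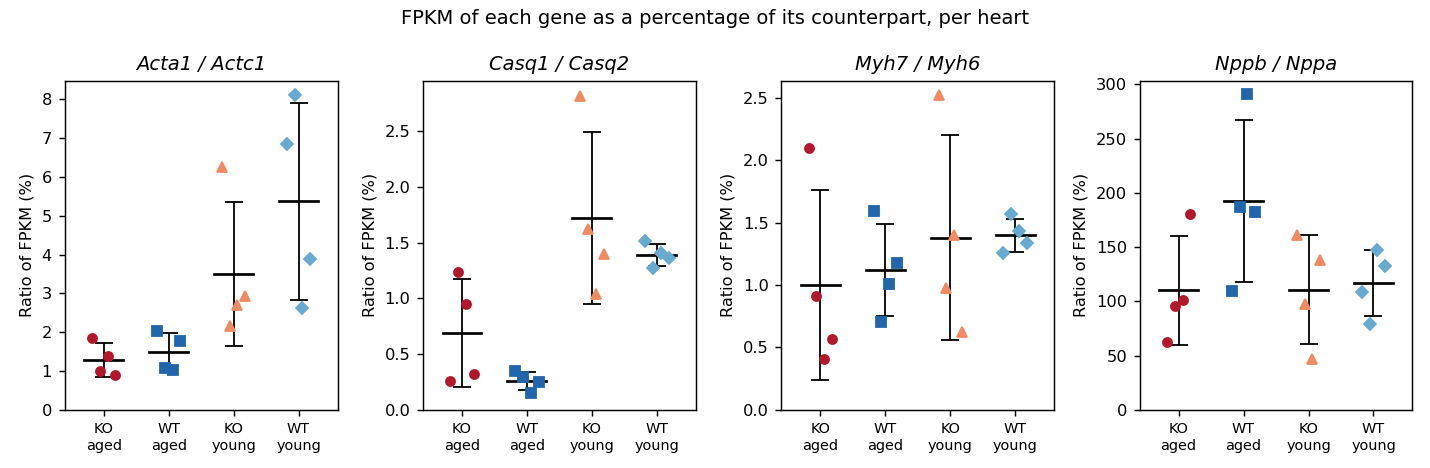
FPKM of Acta1, Casq1, Myh7 and Nppb as a percentage of Actc1, Casq2, Myh6 and Nppa in each heart (vertical axes, linear from 0), with the mean (wide bar) and SD (whiskers) of 4 hearts per group. Acta1 to Actc1 stays under 2.1% in all aged hearts and above 2.1% in all young ones, a cut placed after the values were seen. Myh7 to Myh6 overlaps in every pair of groups.

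Myh6, Actc1, Casq2 and Tnni3 did not pass between aged and young KO hearts. Their log2 change between aged and young KO hearts was -0.30 ± 0.11 for Myh6 (edgeR adjusted p = 0.109), -0.07 ± 0.11 for Actc1 (0.773), 0.09 ± 0.11 for Casq2 (0.673) and -0.21 ± 0.10 for Tnni3 (0.241). In aged WT hearts Myh6 fell by 0.40 ± 0.11 (edgeR adjusted p = 0.0124) and Actc1 fell by 0.56 ± 0.11 (adjusted p = 0.000738) on the log2 scale relative to young WT hearts. Of the 15 adult cardiac genes 1 fell in aged against young KO hearts, the ventricular light chain Myl2 (-0.38 ± 0.11, edgeR adjusted p = 0.0322), with a list median of -0.20 against -0.01 over all genes. Myl2 lost its call in 7 of 26 alternatives (adjusted p up to 0.218). In that comparison 7.63% of all genes were called. Of the same 15 genes none passed between genotypes by edgeR, limma or DESeq2, with none in aged and 2, Actc1 and Casq2, in young hearts at an unadjusted p under 0.05.

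Other genes of the list of skeletal isoforms did not share one direction with Acta1 and Casq1. Some of them were high in every group, such as Eno3 at means of 1219 to 1705 CPM and Smyd1 at 561.5 to 738.2 CPM. Of 13 tested genes 2 rose and 1 fell in aged against young KO hearts, with a median of 0.01, where 7.63% of all genes were called. The fast light chain Myl1 rose to 32.5 ± 3.32 CPM in aged KO hearts, against 17.7 ± 2.59 CPM in young KO hearts (SD, n = 4; 0.88 ± 0.22, edgeR adjusted p = 0.0236), and lost its call without KO_Aged_115, KO_Aged_122, KO_Young_27 or KO_Young_53 (adjusted p up to 0.0697). The skeletal calcium release channel Ryr1 rose by 1.91 ± 0.44 (adjusted p = 0.0105) from a low level, with 18 to 35 counts in aged and 2 to 10 in young KO hearts, and was not called on the log2(FPKM + 1) scale (adjusted p = 0.161). The muscle enolase Eno3 fell to 1235 ± 35.3 CPM, against 1705 ± 149.5 CPM (-0.47 ± 0.08, adjusted p = 0.001), in all 26 alternatives. Mybpc2 stood at 21.3 ± 2.82 CPM in aged KO hearts, against 34.9 ± 15.3 CPM in young KO hearts, where DESeq2 called it and edgeR did not. In aged against young WT hearts Myl1 and Ryr1 rose as well, and Mybpc2, Eno3 and Smyd1 fell, beside 21.7% of all genes called. None of the 13 passed between genotypes by edgeR, limma or DESeq2, with 2 at an unadjusted p under 0.05 in aged and none in young hearts.

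Defining markers of limb muscle other than Myl1 were low, and not all were at 0. Group means were 0.992 to 1.45 CPM for Tnni2 and 0.455 to 0.637 CPM for Tnnt3. Pvalb reached 17 counts in a KO_Aged and in a WT_Young heart. Of 12 such markers 11 were in the table and 3 passed the filter. Their summed level ranged from 32.2 to 40.1 CPM in KO_Aged, from 18.5 to 41.5 CPM in WT_Aged, from 16.9 to 22.7 CPM in KO_Young and from 13.4 to 20.8 CPM in WT_Young hearts, most of it Myl1. The fast myosins Myh1 and Myh2 had at most 3 counts in any heart. The summed level was higher in every aged KO heart than in any young KO heart, while WT hearts of the 2 ages overlapped. Brown fat markers ranged from 40.7 to 69.8 CPM in sum, nearly all of it Cidea and Prdm16. Ucp1 and Elovl3 had at most 1.35 counts in any heart. In young KO against young WT hearts Prdm16 had a log2 change of 0.04. Cidea, a lipid droplet protein gene of brown fat, fell to 25.2 ± 2.83 CPM in young KO hearts, against 37.9 ± 5.36 CPM in young WT hearts (SD, n = 4, log2 change -0.59 ± 0.12, edgeR adjusted p = 0.0486). That call was lost in 13 of 25 alternatives (adjusted p up to 0.203). It was the only call among the 113 listed genes that are not among the 7 in young KO against young WT hearts. There 14 of the 113 had an unadjusted p under 0.05 by edgeR, a share not counted over all genes. DESeq2 called 3 of the 113, beside 148 of all genes.

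Other genes of the stress and fetal response and its regulators were mostly not called in KO hearts. In aged against young KO hearts 7.63% of all genes were called. Of 19 stress genes 1 rose in aged against young KO hearts (median -0.03), the LIM-domain gene Fhl1 at 0.42 ± 0.13 (edgeR adjusted p = 0.0436), which lost its call in 9 of 26 alternatives (adjusted p up to 0.156). Of 28 regulators 1 fell (median -0.06), Hdac9, a class IIa histone deacetylase that holds back MEF2, at -0.37 ± 0.10 (adjusted p = 0.0285), lost in 6 of 26 (up to 0.114). Between aged and young WT hearts 8 of the 28 regulators fell (median -0.15 against -0.01 over all genes), where 21.7% of all genes were called in either direction, so the count is not read as particular to them. They were Srf, which binds the CArG box, its partner Myocd, Mef2a, Gata4, Gata6, Tead1, which binds the MCAT element, Thra and Hdac9. Among stress genes Slc2a1 rose and Xirp2 fell there. Between genotypes none of these 47 genes passed by edgeR or limma at either age. DESeq2 called Ccn2 in aged and Fhl1 and Fhl2 in young hearts. By edgeR 6 in aged and 7 in young hearts had an unadjusted p under 0.05, shares not counted over all genes.

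Of 6 ventricular markers 1 fell in aged against young KO hearts, Myl2 again, with a median of -0.23. In that comparison 7.63% of all genes were called, so the ventricular, atrial and conduction counts are not read as particular to those lists. Of the atrial markers 13 were tested and 1, Stard10, rose in aged against young KO hearts (0.42 ± 0.13, edgeR adjusted p = 0.0428), lost in 8 of 26 alternatives (adjusted p up to 0.149). Of 9 conduction system markers 1 rose, the calcium channel subunit gene Cacna2d2 (1.16 ± 0.34, adjusted p = 0.048), lost in 12 of 26 (up to 0.163). None of the 113 listed genes passed in aged KO against aged WT hearts by edgeR or limma. There 23 of the 113 had an unadjusted p under 0.05 by edgeR, a share not counted over all genes. DESeq2 called 6 of the 113, among them Myl4, Myl7 and Sln, beside 261 of all genes. With the atrial covariate the log2 change was -1.46 for Acta1 in aged against young KO hearts (edgeR adjusted p = 0.0573) and, between aged KO and aged WT hearts, 1.52 for Casq1 (adjusted p = 0.426). The part of atrial tissue in these values was not tested further.

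The genes most like each of the 6 over the 16 hearts were sought among 12804 genes by Pearson correlation of log2 CPM, as a description in which all points share their libraries. For Acta1 they were Usp12 (r = 0.934), Tspan9 (0.927) and Rhoa (0.919), and for Casq1 Dpysl3 (0.936), Itm2a (0.926) and Slc47a1 (0.911). For Myh7b they were Otud1 (0.915), Nudt3 (0.894) and Ruvbl2 (0.889), for Myh7 Srpk2 (0.862), Aff4 (0.853) and Moap1 (0.800), for Nppb Lyrm4 (0.881), Meig1 (0.867) and Lsm3 (0.865), and for Nppa Nt5c3 (0.848), Csgalnact1 (0.791) and Znhit6 (0.773). After centring within groups, which removes the age difference, the first gene stayed Nt5c3 for Nppa (0.863) and became Atpif1 for Nppb (0.907), Parp8 for Myh7 (0.856), Lrrc61 for Myh7b (0.847), Fmn1 for Acta1 (0.918) and Mfsd6 for Casq1 (0.875).

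Among the 6 genes themselves, Acta1 and Casq1 had a Pearson r of 0.721 over the 16 hearts and of 0.08 after centring within groups. Myh7b and Casq1 had 0.644 and -0.34, and Myh7 and Acta1 0.638 and 0.336. Acta1 and Casq1 both had lower means in aged hearts of each genotype, while within groups their values bore almost no linear relation.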

How the data were processed

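Bulk RNA of 16 hearts (4 groups of 4) was analysed from 2 deposited tables. One gives the authors' expected counts, of which 9.57 to 10.5% per library are fractional; the other gives FPKM from the authors. The submitters' processing notes name HISAT, Bowtie2 and GRCm39; which program counted the reads, and whether by strand, the sources do not say. Without strand, reads of Myh7 and its antisense gene Mhrt cannot be told apart, nor can those of Nppa, Casq1 and Myh7b and the opposite-strand genes that overlap them in GENCODE's mouse annotation.

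The 7 genes and the 10 gene lists were chosen with earlier results of these data known. Groups came from the genotype and treatment labels and the table's column names; titles of young WT samples begin with other letters. Expected counts were rounded to whole numbers and tested with edgeR 4.0.16 in R 4.3.3 (filterByExpr, TMM, robust quasi-likelihood fit, all 16 libraries, 12 residual degrees of freedom). Alternatives were RLE size factors, other filters, only the compared groups, DESeq2 1.42.0, limma 3.58.1 on log2(FPKM + 1) and log2(FPKM + 0.1), an atrial covariate, no robust dispersion, and single hearts left out. FPKM ratios were compared by exact permutation. Named list genes are up to 3 per list and comparison with the lowest adjusted p under 0.05, plus Myh6, Actc1, Casq2 and Tnni3. List genes named in aged against young WT hearts, by DESeq2 or at an unadjusted p were chosen after their values were seen. Total counts of 11456503 to 13298660 limit genes with few counts, such as Tnni1. Replicates were separate mice, per the series text. Sequences are from RefSeq tables of GRCm38.p6, another build than the authors', matched by symbol: each of the 7 genes had a promoter entry. Nppb and Myh7b windows are not shown because annotated transcripts begin inside them.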

Additional observations from a re-analysis of the deposited data

Results flagged for a closer look

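A heart far from the other 3 of its group was found for 4 of 52 sets of 4 values tested (7 genes and 6 ratios in 4 groups); chance gives about 1 in 20. WT_Aged_1 held 409.6 CPM of Nppa, and its distance to the next heart was 0.881 of the group's range. The same heart held 309 CPM of Nppb, the highest of its group. WT_Aged_5 held 0 CPM of Tnni1, where the other 3 aged WT hearts had 1 count each, and KO_Young_38 held 0.578 CPM of Tnni1, from 7 counts. The ratio of Tnni1 to Tnni3 in KO_Young_38, 0.00913%, stood apart for the same counts.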

How the results depend on the processing

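No paired analysis was possible because no animal number occurs in 2 groups. The number of genes called in aged KO against aged WT hearts, 117, was 17 with only the compared groups, 73 on log2(FPKM + 0.1), 9 with the atrial covariate, 261 by DESeq2, 54 with KO_Aged_114 and WT_Aged_1 both left out (chosen after seeing the data), and 31 to 251 with single hearts left out. In young KO against young WT hearts, 36 became 135 with only the compared groups, 15 on log2(FPKM + 1), 7 with the atrial covariate, 148 by DESeq2, and 4 to 84 with single hearts left out. In aged against young KO hearts, 1020 became 644 to 1435 with single hearts left out. In aged against young WT hearts the sign turned without WT_Aged_4 for Nppb (0.053; -0.61 to 0.053 with single hearts left out) and for the log2 ratio of Myh7b to Myh7 (-0.16; -0.16 to 0.32). On log2(FPKM + 1) Casq1 in aged against young WT hearts came to -2.01. No other direction or call of the 6 genes changed beyond those given above for Acta1 and Nppa, apart from signs of values that passed in no fit. The 17 ratio tests gave 0 calls under each of the 18 alternatives run, which says nothing about stability, since no p can be under 0.0286 before adjustment. The cause of these shifts was not tested. Tnni1, at 0 to 7 counts, was left out by the filter on low counts.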
